A study of Mus musculus with 8 samples.

Results

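The Hox cluster genes are the genes whose symbol is Hoxa, Hoxb, Hoxc or Hoxd followed by a number from 1 to 13, and they were read here on 8 arrays of E12.5 mouse brain. RefSeq lists 39 of these genes in the mouse, of which 33 had at least 1 probe set of their own, 48 probe sets in all among the 45037 tested. The other 6 are not analysed singly here. A further 3 probe sets are annotated to a pair of Hox genes and are described apart. The measured genes are 9 of the 11 in the Hoxa cluster on chromosome 6, 9 of 10 in Hoxb on chromosome 11, 7 of 9 in Hoxc on chromosome 15 and 8 of 9 in Hoxd on chromosome 2.

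Both genotypes were C57/BL6 embryos homozygous for *Rest* GTi, an allele of *Rest* that holds a gene trap turned so that *Rest* is spliced normally. The mutants (Cre+, *Rest* GTi/GTi) also carried a *Nestin Cre* transgene, whose promoter is active in neural progenitors and whose recombinase turns the trap back and so stops *Rest* transcripts in those cells. The controls (*Rest* GTi/GTi) were littermates without Cre, so the effects of Cre and of REST loss cannot be told apart. Each genotype has 4 arrays labelled as biological replicates, and the sources used here do not say if RNA of several embryos was pooled, so that p-values measure only the spread between these samples. The brightest *Rest* probe set read 84.4 to 216.7 on the mutant arrays and 170.1 to 271.8 on the controls, and the array labelled Cre+ replicate 2 lay above 3 of the 4 controls. Genotypes named below are therefore those of the labels. The neural genes *Sox2* and *Tubb3* read 3629 to 4503 and 5673 to 7186 on every array. *Xist*, the RNA that coats the inactive X chromosome, was at 7875 on control replicate 2, at 8247 on control replicate 3 and at most 57.8 elsewhere.

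Hox proteins are homeodomain transcription factors that give cells along the head-to-tail axis their regional identity. The genes lie in each cluster in the order in which they are expressed along that axis, so genes of low number reach furthest towards the head and genes of high number stay in the trunk and tail. Copies of 1 ancestral gene in different clusters share a number and form a paralogue group. In the developing brain their expression ends within the hindbrain, whose segments are called rhombomeres, and the forebrain and midbrain lack them.

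The sequence before the transcription start is shown for the 4 genes of groups 2 to 4 that had an entry in the promoter table and whose arrays differed most, so that the motifs searched can be seen in place. They are the 250 bases before the start, from RefSeq on GRCm38.p6, written 5′ to 3′ along the gene. Capitals mark a match on either strand to TGACAG, which Meis proteins bind, or to TGATNNAT, which Pbx and Hox proteins bind together. The regions are chr6:52164832-52165081 (minus strand) for *Hoxa2*, chr6:52213068-52213317 (minus strand) for *Hoxa3*, chr2:74711743-74711992 (plus strand) for *Hoxd3* and chr15:103034145-103034394 (plus strand) for *Hoxc4*.
Hoxa2: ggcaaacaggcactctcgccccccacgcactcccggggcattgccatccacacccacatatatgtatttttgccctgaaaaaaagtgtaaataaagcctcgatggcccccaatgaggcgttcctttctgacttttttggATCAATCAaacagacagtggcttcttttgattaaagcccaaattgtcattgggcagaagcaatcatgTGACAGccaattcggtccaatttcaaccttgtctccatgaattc
Hoxa3: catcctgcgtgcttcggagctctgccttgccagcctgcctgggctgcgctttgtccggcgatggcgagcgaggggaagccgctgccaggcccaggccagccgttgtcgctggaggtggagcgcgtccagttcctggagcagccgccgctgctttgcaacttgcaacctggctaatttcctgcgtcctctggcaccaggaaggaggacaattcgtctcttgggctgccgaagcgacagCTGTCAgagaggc
Hoxd3: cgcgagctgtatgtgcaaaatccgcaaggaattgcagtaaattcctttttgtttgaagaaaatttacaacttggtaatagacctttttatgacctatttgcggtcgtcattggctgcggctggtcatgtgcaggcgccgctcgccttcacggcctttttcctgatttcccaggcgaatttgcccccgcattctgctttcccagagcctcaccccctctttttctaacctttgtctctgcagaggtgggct
Hoxc4: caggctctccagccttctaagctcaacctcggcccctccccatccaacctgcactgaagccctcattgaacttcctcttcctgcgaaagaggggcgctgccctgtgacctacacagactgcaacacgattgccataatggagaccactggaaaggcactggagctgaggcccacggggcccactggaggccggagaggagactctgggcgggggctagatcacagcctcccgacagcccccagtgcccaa

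The promoter table holds 24 promoters of 22 Hox genes, and *Hoxb2* and *Hoxb3* are not among them. TGACAG was found in 2 of the 24, those of *Hoxa2* and *Hoxa3*, and in 15.9% of all 32851 promoters in the table. TGATNNAT was found in 4 of the 24, those of *Hoxa2*, *Hoxb1*, *Hoxb8* and *Hoxd11*, and in 7.68% of all. The core of the RE1, the element that REST binds, was searched as TTCAGCACC followed after any 2 bases by GGACAG, and was in 0 of the 24 and in 0.00913% of all. Its left part alone, TTCAGCACC, which overlaps that core, was in 1 of the 24, that of *Hoxd12*, and in 0.301% of all. The full core is so rare in the table that 0 of 24 would be usual for any set of this size, and looser forms of the RE1 were not searched. A match of letters is a description, and a window without one says nothing of binding elsewhere.

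Values are normalized intensities, in which the arrays have been given 1 common distribution, and log2 levels are the log2 of that intensity plus 16. As a measure of background, 9 probe sets of Y-linked genes read 0.2 to 9.1 (median 2.9) on the control arrays with high *Xist*. Most Hox probe sets lay near that range: 34 of the 48 had a mean under 16 over the 8 arrays, and 18 reached 32 on any array. By gene, 11 of 33 had a mean of 16 or more on their brightest probe set. Intensities of different probe sets are not comparable as levels, so each is followed across arrays.

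**Figure D1:**
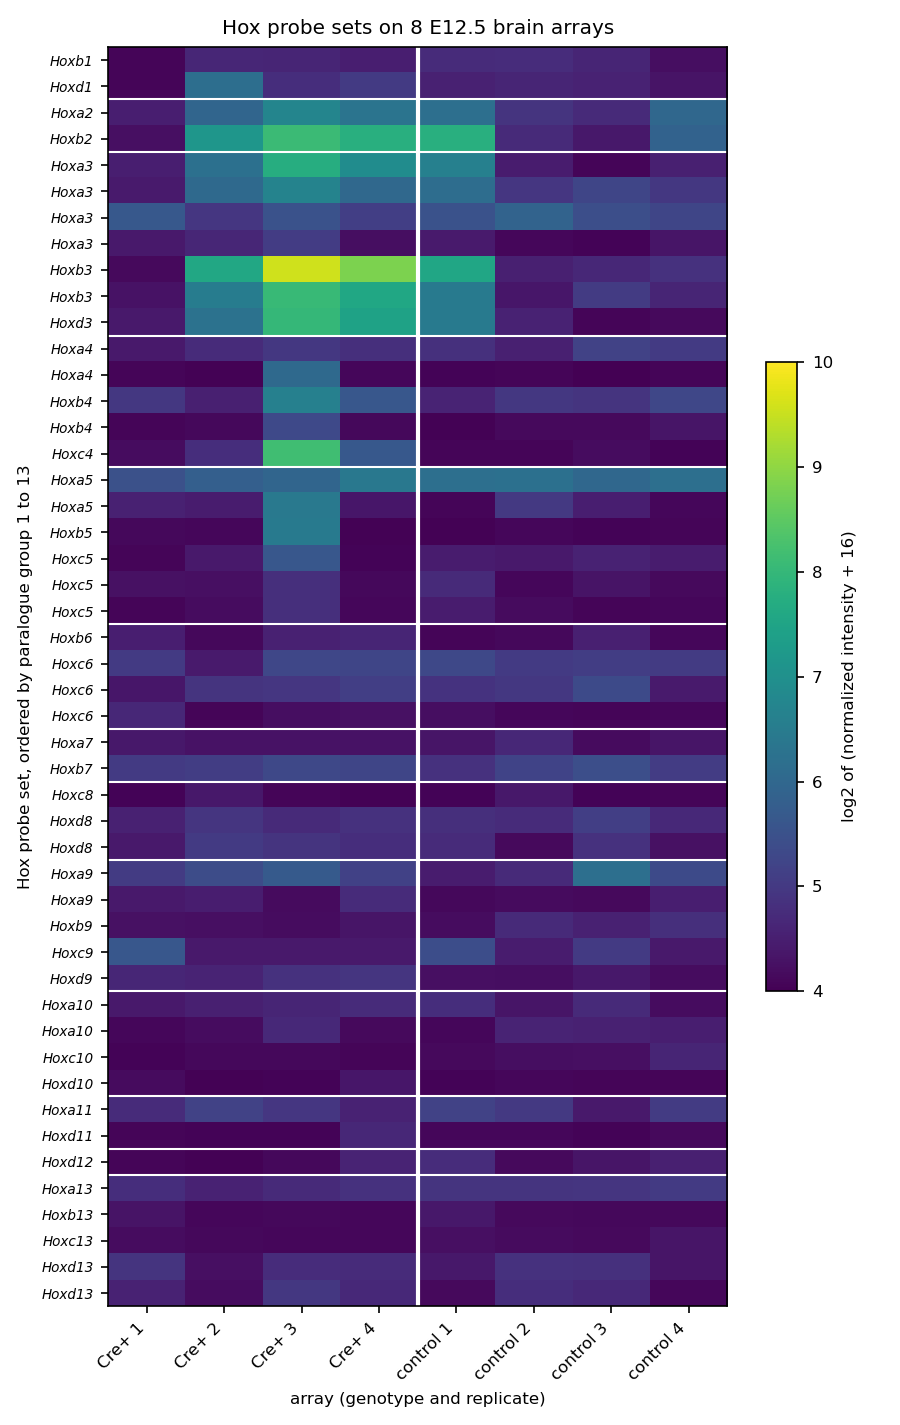
Log2 of the normalized intensity plus 16 (colour) of the 48 Hox probe sets (rows, ordered by paralogue group, with lines between groups) on the 8 arrays (columns, mutants left of the white line and controls right). Bright cells lie in groups 2 to 5, on Cre+ replicates 2, 3 and 4 and control replicate 1 for groups 2 and 3, and mostly on Cre+ replicate 3 for groups 4 and 5.

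The Hox genes of paralogue groups 2 and 3, whose expression reaches the rhombomeres of the hindbrain, were bright on some arrays and at background on others of the same genotype. *Hoxb3*, which acts with its paralogues in patterning the caudal hindbrain, read 1.8, 178.7, 746 and 434.5 on Cre+ replicates 1 to 4 and 172.6, 6.9, 9.3 and 12.8 on control replicates 1 to 4. Cre+ replicates 2, 3 and 4 and control replicate 1 were high and the other 4 arrays low, and the genotypes overlapped. A further *Hoxb3* probe set read 3.5, 75.3, 245.8 and 173.3 on the mutant arrays and 73.5, 4.6, 17 and 8.8 on the controls, with the same 4 arrays high.

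*Hoxd3*, known for its part in shaping the first vertebrae, read 5.3, 60.7, 238 and 160.7 on the mutants and 72.3, 7.8, 0.9 and 1.8 on the controls. *Hoxa3*, needed for the thymus and parathyroid glands, read 6.8, 58.6, 199.2 and 105.2 on the mutants and 82.7, 6.1, 1 and 7 on the controls on its brightest probe set. Both genes split the arrays as *Hoxb3* did. A further *Hoxa3* probe set read 5.7, 50.4, 87.5 and 48.9 on the mutants and 54.9, 15.1, 22.3 and 15.5 on the controls, again with those 4 arrays highest. The remaining *Hoxa3* probe sets did not follow: another ran from 14.9 to 44.2 with its highest value on control replicate 2, and the last stayed between 0.7 and 17.3.

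In group 2, *Hoxb2*, which acts in the facial motor neurons of the hindbrain, read 2.9, 125.5, 256 and 203.8 on the mutants and 205.6, 10.1, 4.9 and 43.6 on the controls. *Hoxa2*, which patterns the hindbrain and the second pharyngeal arch, read 6.7, 46.6, 90.8 and 63.3 on the mutants and 56.8, 13.7, 10.4 and 48.2 on the controls. Control replicate 4 lay above control replicates 2 and 3 for both genes of group 2, whereas for *Hoxa3*, *Hoxb3* and *Hoxd3* it was at 7, 12.8 and 1.8, with the low controls.

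**Figure D2:**
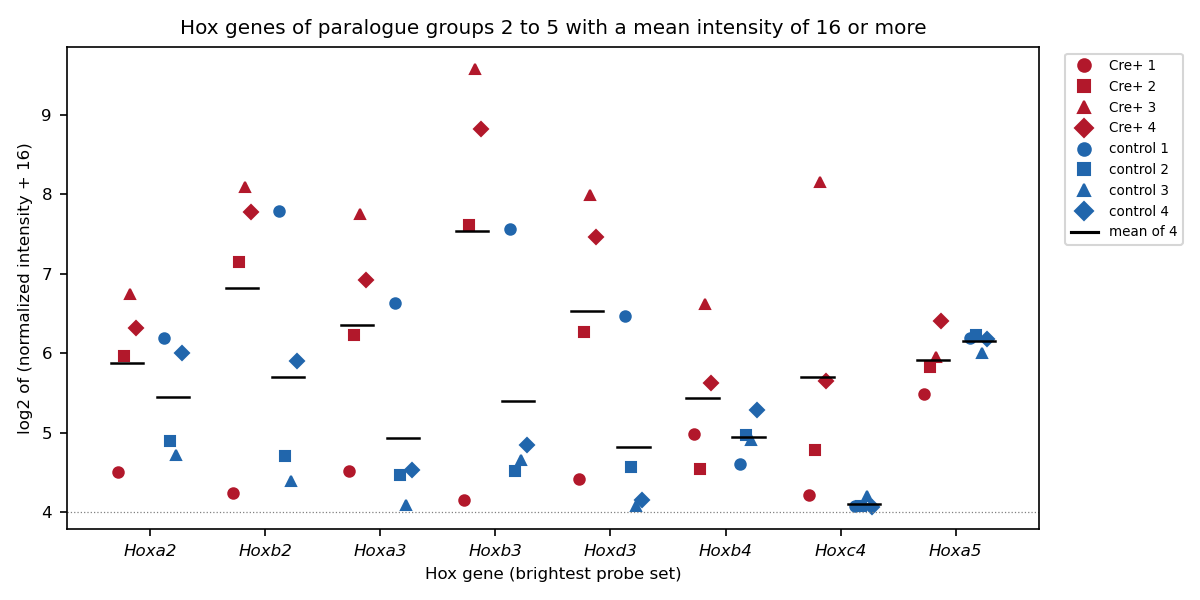
Log2 of the normalized intensity plus 16 (vertical axis) on each array for the 8 Hox genes of groups 2 to 5 with a mean intensity of 16 or more (horizontal axis); each symbol is an array, red for Cre+ and blue for control, the bars are means of 4 arrays and the dotted line is an intensity of 0. In groups 2 and 3, control replicate 1 lies among Cre+ replicates 2 to 4 and Cre+ replicate 1 among the low controls.

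The genes of groups 4 and 5, whose expression ends in the most caudal hindbrain and the neck region of the spinal cord, were bright on fewer arrays. *Hoxc4* read 2.5, 11.4, 267.9 and 34.2 on the mutants and 0.9, 0.9, 2.4 and 0.7 on the controls. The genotypes did not overlap for *Hoxc4*, but Cre+ replicate 1 stood at 2.5 against 2.4 on control replicate 3, both within the background range above. *Hoxb4*, also used by blood stem cells, read 15.6, 7.2, 82.4 and 33.2 on the mutants and 8.3, 15.3, 13.9 and 23 on the controls, with Cre+ replicates 3 and 4 highest. Its further probe set read 23.9 on Cre+ replicate 3 and 0.5 to 4.4 elsewhere.

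Other probe sets of groups 4 and 5 were bright on Cre+ replicate 3 alone. *Hoxb5*, known from the enteric nervous system, read 72 there and 0.5 to 1.4 on the other 7 arrays. A *Hoxa4* probe set read 49.9 there and 0.2 to 1.1 elsewhere, and *Hoxc5*, which acts in neck motor neurons, read 33.2 there and 0.7 to 8 elsewhere. The other *Hoxc5* probe sets peaked on the same array, at 12.2 and 12.1.

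*Hoxa5*, required in lung and phrenic motor neurons, was read differently by its 2 probe sets. The dimmer on average was of the same kind as *Hoxb5*, with 7.5, 6, 69.9 and 4.6 on the mutants and 1, 15.7, 6.7 and 1.2 on the controls. The brighter, whose design allows matches to other transcripts, read 28.6, 40.8, 45.8 and 69 on the mutants and 56.9, 58.7, 47.9 and 56.5 on the controls and did not single out that array. The brightest *Hoxa4* probe set, of the same design, ran from 5.3 to 20.3 and did not either. Over groups 2 to 5, 17 of 20 probe sets had their highest value on Cre+ replicate 3, against 2 of 26 in groups 6 to 13.

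Of the 3 probe sets annotated to a pair of Hox genes, 1 gave the same split of arrays. This one, shared by *Hoxd4* and *Hoxd3*, read 17.8, 83, 254 and 176.1 on the mutants and 76.5, 29.7, 18.5 and 6.6 on the controls, with Cre+ replicates 2, 3 and 4 and control replicate 1 high, as for *Hoxd3* itself. Another shared by those genes read 30.5 on Cre+ replicate 3 and 0.9 to 6.9 elsewhere. The third, shared by *Hoxb8* and *Hoxb7*, reached 7.1 at most.

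In group 1, whose genes act early in the hindbrain, *Hoxb1* stayed between 0.9 and 11.1 and *Hoxd1* read 1, 56, 11.5 and 16.2 on the mutants and 7.5, 8.5, 7.8 and 3.8 on the controls. *Hoxd1* was thus bright on the array labelled Cre+ replicate 2 and no other, which is also the array with the highest level of the mesenchyme genes given below.

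The Hox genes of groups 6 to 13, expressed in trunk, limbs and tail, were mostly near background. Of their 26 probe sets (20 genes), 24 never reached 32, and the exceptions belong to *Hoxa9* and *Hoxc9*. *Hoxa9*, a thoracic Hox gene, read 16.9, 26.4, 35.8 and 19.7 on the mutants and 6, 10.1, 56.5 and 24.7 on the controls, which is the highest value of these groups and lies on a control. *Hoxc9*, which sets thoracic motor neuron identity, read 33.8 on Cre+ replicate 1, 27 on control replicate 1 and 5.1 to 16.7 elsewhere, so that of its 2 brightest arrays 1 was low and 1 high for groups 2 and 3. *Hoxb7* read 16.7, 18.2, 23.2 and 22.3 on the mutants and 12.8, 21.2, 27.8 and 17.3 on the controls, and *Hoxc6*, a brachial Hox gene, read 16.4, 5.5, 22.5 and 22.1 on the mutants and 23.5, 16.2, 18.3 and 17.1 on the controls. Neither separated the arrays. The highest intensity was 24.5 in group 6, 27.8 in group 7, 18.7 in group 8, 11.7 in group 10, 20.6 in group 11, 11 in group 12 and 16.6 in group 13.

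The arrays were placed by the mean log2 level of the members relative to the mean of the 4 controls. For the 5 genes of groups 2 and 3 this was -0.89, 1.38, 2.77 and 2.20 on Cre+ replicates 1 to 4 and 1.67, -0.63, -0.87 and -0.17 on control replicates 1 to 4. Both genotypes had arrays at the top and at the bottom, with Cre+ replicate 1 lowest, and the first 6 places in the order of the 8 arrays were the same without scaling, with 2 other scalings and with added constants of 1 and 50. Under no scaling and with a constant of 1, Cre+ replicate 1 and control replicate 3 changed places at the bottom. For the 6 genes of groups 4 and 5 the levels were -0.22, -0.036, 1.52 and 0.33 on the mutants and -0.075, -0.054, 0.050 and 0.079 on the controls, so that control replicate 1, high in groups 2 and 3, was with the other controls here. For the 20 genes of groups 6 to 13 the 8 arrays lay between -0.10 and 0.072.

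**Figure D3:**
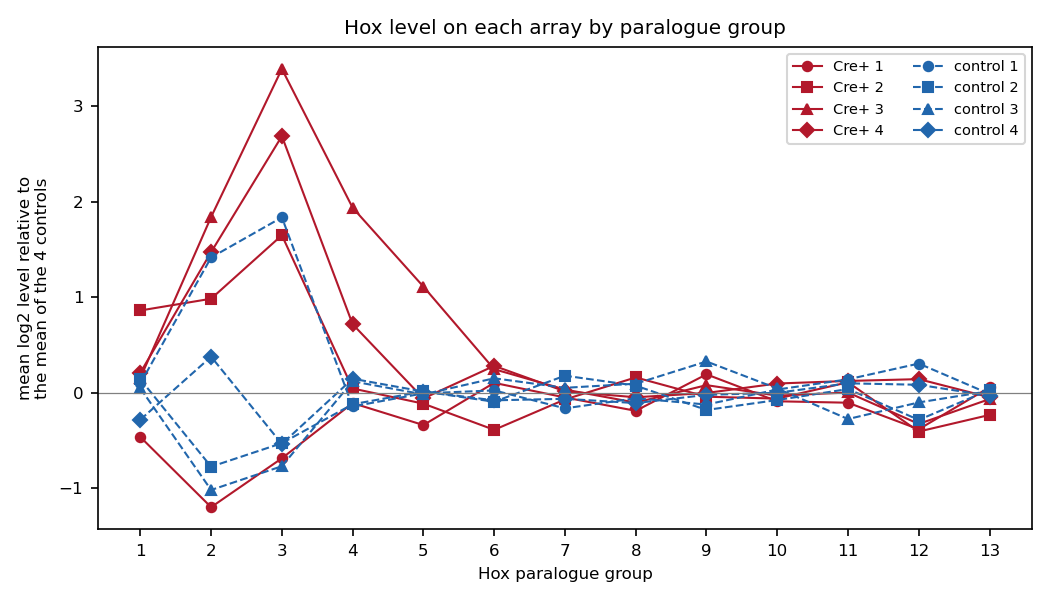
Mean log2 level of the measured genes of each Hox paralogue group (horizontal axis) relative to the mean of the 4 controls (vertical axis), 1 line per array, red for Cre+ and blue dashed for control. The arrays spread from -0.77 to 3.39 in group 3, are set apart by Cre+ replicate 3 at 1.94 in group 4 and 1.11 in group 5, and lie within 0.41 of the control mean in groups 6 to 13.

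By cluster, the Hoxb genes varied most, at -0.34, 0.31, 1.19 and 0.70 on the mutants and 0.38, -0.17, -0.17 and -0.039 on the controls. The Hoxa cluster ran from -0.34 on Cre+ replicate 1 to 0.49 on Cre+ replicate 3, with control replicate 1 at 0.24. The Hoxd cluster ran from -0.15 on control replicate 4 to 0.62 on Cre+ replicate 4. In the Hoxc cluster, which begins at group 4, Cre+ replicate 3 stood at 0.65 and the other 7 arrays between -0.080 and 0.069. The clusters differ in which groups they hold and in which of their probe sets work, so these means are no ranking of the clusters.

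Spread within a genotype was wide in the Hox genes. The median standard deviation of the log2 level within genotypes was 0.26 over the 33 Hox genes and 0.16 over all 18193 genes. Of the 33, 12 were among the 5% of genes with the largest such spread, and the 8 of these in the top 1% were all in groups 2 to 5. It was 1.98 for *Hoxb3*, 1.65 for *Hoxb2*, 1.37 for *Hoxd3*, 1.27 for *Hoxa3*, 1.23 for *Hoxc4* and 0.87 for *Hoxa2*. In bulk tissue, fewer cells of a type and less RNA per cell cannot be told apart.

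No Hox gene passed the test between genotypes: 0 of 33 were called higher and 0 lower in the mutants by limma with Benjamini-Hochberg adjustment over all probe sets, against 0.214% of all 18193 genes called higher and 0.011% called lower (0.225%, or 41 genes, in either direction). By probe set 0 of 48 were called, against 0.14% of all. At an unadjusted p under 0.05 limma gave 3 of the 33 Hox genes, which is 9.09%, against 6.97% of all genes: *Hoxd9* was higher and *Hoxa13* and *Hoxb9* lower in the mutants, all with means under 16. The methods' t-test, with equal or unequal variances, also called 0 Hox genes. The median log2 fold change of the Hox genes was 0.056, with 18 above 0 and 15 below, and that of all genes was -0.0014.

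The largest differences were in groups 3 and 4 and had wide errors. *Hoxb3* had a mean intensity of 340.2 ± 324 (SD, n = 4) in the mutants and 50.4 ± 81.5 in the controls, a log2 fold change of 2.14 (standard error 1.18, 95% interval -0.55 to 4.84, two-sided exact permutation p = 0.229, limma adjusted p = 0.789). The log2 fold change was 1.71 for *Hoxd3* (standard error 0.82, limma adjusted p = 0.756), 1.59 for *Hoxc4* (standard error 0.73, limma adjusted p = 0.744) and 1.43 for *Hoxa3* (standard error 0.76, limma adjusted p = 0.783). Cre+ replicate 3 carried much of these: without it they were 1.46 for *Hoxb3*, 1.23 for *Hoxd3*, 0.77 for *Hoxc4* and 0.96 for *Hoxa3*. Without Cre+ replicate 1, the lowest of the mutants, *Hoxb3* reached 3.27 (limma adjusted p = 0.490). Their size also rests on the added constant, since the low arrays are at background: *Hoxc4* was 3.58 with a constant of 1 and 0.91 with 50. With less specific probe sets left out, *Hoxa3* was 0.46.

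In group 2 the log2 fold change was 1.12 for *Hoxb2* (standard error 0.99, limma adjusted p = 0.887) and 0.43 for *Hoxa2* (standard error 0.52, limma adjusted p = 0.926). Both high-*Xist* controls were low for these genes, while Cre+ replicate 1, with *Xist* at 23.5, was low too. Against the other 2 controls alone the fold changes turned to -0.031 and -0.21, and with *Eif2s3y*, a Y-linked gene, as a covariate to -0.084 and -0.25. By the same 2 settings *Hoxb3* went from 2.14 to 1.33 and 1.32, *Hoxa3* from 1.43 to 0.78 and 0.76 and *Hoxd3* from 1.71 to 1.22 and 1.21, while *Hoxc4* was 1.63 and 1.66. The part of embryo sex in the Hox levels was not tested further. In groups 4 and 5 the log2 fold change was 0.50 for *Hoxb4* (standard error 0.40) and -0.23 for the brightest *Hoxa5* probe set (standard error 0.18), and the latter was 0.53 on the *Hoxa5* probe set that remains when less specific ones are left out.

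**Figure D4:**
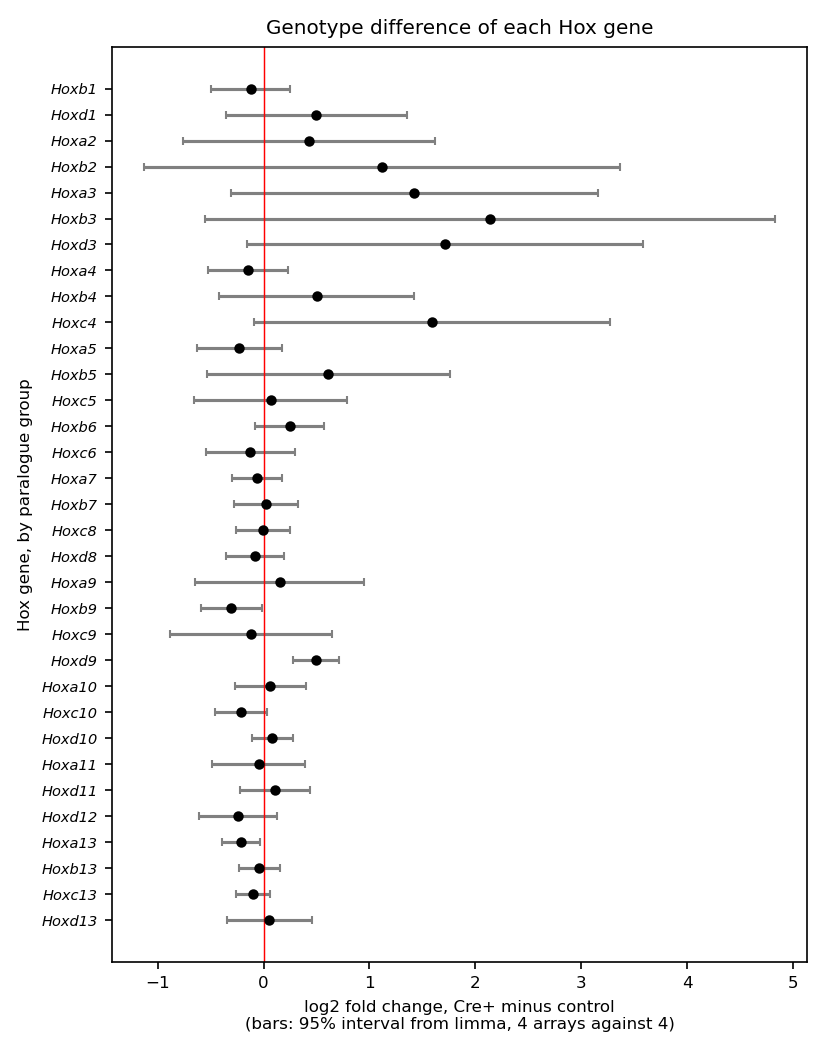
Log2 fold change, Cre+ minus control (horizontal axis), of the 33 Hox genes in order of paralogue group (vertical axis), with 95% intervals from limma over 4 arrays of each genotype. The widest intervals are in groups 2 to 4, and the intervals that exclude 0 belong to *Hoxd9*, *Hoxb9* and *Hoxa13*, none of which was called after adjustment.

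The genotypes did not overlap for 4 of the 33 Hox genes, or 12.1%, against 4.64% of all genes. Higher in the mutants were *Hoxc4* and *Hoxd9*, against 2.48% of all genes, and lower were *Hoxa13* and *Hoxc10*, against 2.15%. *Hoxd9*, which acts in lumbar motor neurons and limbs, read 9.2, 8.2, 13.1 and 14.6 on the mutants and 3, 2.8, 4.9 and 2.4 on the controls, a log2 fold change of 0.49 (standard error 0.094, limma adjusted p = 0.2002, and by exact permutation a two-sided p = 0.0286, which no comparison of 4 with 4 can go below). These intensities are close to the background range, whose upper end is 9.1. *Hoxa13*, which patterns the digits, read 7.9 to 12.8 on the mutants and 13.8 to 16.6 on the controls, and *Hoxc10* 0.6 to 1.6 and 1.8 to 8.8. The values of *Hoxc10* lie within the background range, and *Hoxc4* parted the genotypes by 2.5 against 2.4. The share of 12.1% thus rests on values in or close to that range. All 4 of these differences missed the threshold after adjustment.

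Of 9 listed genes of the proteins that bind DNA with Hox proteins (Meis, Pbx and Pknox, the TALE cofactors), 8 were measured and 0 were called in either direction. Of all genes 0.225% were called, so 0 calls say little in lists as short as this one and those below. Their mean log2 level was -0.22, -0.081, 0.079 and 0.056 on the mutants and 0.084, -0.064, -0.051 and 0.030 on the controls, lowest on Cre+ replicate 1 and highest on control replicate 1 and Cre+ replicates 3 and 4. *Meis1* read 327, 585.1, 703.6 and 620 on the mutants and 616.6, 457.3, 483.8 and 554.3 on the controls. *Meis2* read 1805, 2354, 2466 and 2568 on the mutants and 2762, 1880, 2162 and 2260 on the controls. For both of these the 4 highest values were on the 4 arrays that were high for Hox groups 2 and 3. The other members did not follow. *Pbx2* and *Pknox2* were highest on Cre+ replicate 1, *Pbx3* and *Meis3* on control replicate 4 and *Pknox1* on control replicate 3. *Pbx4* read higher on control replicate 4 than on Cre+ replicates 2 and 3. The share of all genes that split the arrays in this way was not counted. Over the 8 genes the log2 fold changes ran from -0.14 for *Pbx4* to 0.036, and *Pbx3* (-0.12), *Meis3* (-0.12) and *Pknox1* (-0.030) were the others of smallest p. *Pbx3* read 3078 to 4235 on the mutants and 3710 to 4403 on the controls. *Pknox1* turned to 0.036 without scaling between arrays.

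Of 7 regulators that act on Hox genes from above, 5 were measured and 0 were called. *Gbx2*, which holds the border of midbrain and hindbrain, read 201.4, 271.2, 455.7 and 270.1 on the mutants and 392.3, 329.5, 322.4 and 333.3 on the controls, with Cre+ replicate 3 highest and Cre+ replicate 1 lowest (log2 fold change -0.25, limma adjusted p = 0.883). *Egr2*, the rhombomere gene Krox20, was at 1.4 to 17.4 and the tail genes *Cdx2* and *Cdx4* at 1 to 19 and 2.8 to 5.9.

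Retinoic acid switches on Hox genes of low number, and 0 of the 14 measured genes of its pathway (16 listed) were called. Of these 14, 11 had a log2 fold change above 0, against 9002 of all 18193 genes. Their median was 0.18, against -0.0014 over all genes. The mean log2 level of the list was 0.143, 0.625, 0.19 and 0.11 on the mutants and -0.136 to 0.133 on the controls. *Crabp1*, which binds retinoic acid in the cell, read 1539, 1557, 1666 and 1747 on the mutants and 1441, 1254, 1129 and 1153 on the controls (log2 fold change 0.39, standard error 0.094, limma adjusted p = 0.389), and the genotypes did not overlap. It was the 1 gene of the 14 higher in the mutants without overlap, against 2.48% of all genes. *Rarb* (0.70), *Rarg* (0.89) and *Dhrs3* (0.57), a pair of receptors and an enzyme that limits retinoic acid, had their highest value on the array labelled Cre+ replicate 2, at 162.8, 251.7 and 66.6. That array was also highest in the mesenchyme genes, whose part in these values was not tested. *Cyp26b1*, which degrades retinoic acid, read 207.6, 484, 768.8 and 655 on the mutants and 712, 425.5, 337.4 and 405.6 on the controls, and its 4 highest values were on the 4 arrays that were high for Hox groups 2 and 3. No other measured gene of the pathway split the arrays in this way.

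Polycomb proteins keep Hox genes silent and trithorax proteins keep them on. Of 22 listed, 21 were measured and 0 were called, and the median log2 fold change was -0.033. *Kdm6a*, which removes the Polycomb mark, read 436.2 to 478.5 on the mutants and 535.9 to 666.1 on the controls (log2 fold change -0.34, standard error 0.083, limma adjusted p = 0.413). It lies on the X chromosome and escapes its inactivation. It read 666.1 and 555.7 on the controls with high *Xist* and 535.9 and 570.8 on the others, all above the mutants. *Cbx7* (-0.28) and *Bmi1* (-0.13), which belong to the Polycomb complex PRC1, were also lower without overlap, and *Ash2l*, a trithorax protein, had 0.080. With *Kdm6a*, 3 of the 21 genes were thus lower without overlap, against 2.15% of all genes, and none of them was called. The mean log2 level of the list was 0.007, -0.084, -0.066 and -0.039 on the mutants and -0.037, 0.037, 0.013 and -0.013 on the controls. The 4 lowest values were on the arrays that were high for Hox groups 2 and 3, within a range far narrower than that of the Hox genes.

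Markers of other tissues were read beside the Hox levels. The 9 measured genes of hindbrain and spinal cord outside the Hox family had a mean log2 level of -0.53, -0.014, 0.48 and 0.44 on the mutants and 0.37, -0.13, -0.20 and -0.045 on the controls. The 3 highest arrays were Cre+ replicates 3 and 4 and control replicate 1, and the lowest was Cre+ replicate 1. All 8 arrays stood in the same order as for Hox groups 2 and 3. In this list *Lbx1*, a gene of dorsal hindbrain and spinal interneurons, read 12, 95.3, 161.9 and 166.1 on the mutants and 156.1, 29.7, 37.5 and 80.2 on the controls. *Slc6a5*, the glycine transporter of inhibitory neurons, read 13.7, 28.3, 101.1 and 58.7 and then 54.3, 10.6, 10.4 and 27, and *Phox2a*, a gene of cranial motor and noradrenergic neurons, read 11, 31.2, 63.4 and 84.1 and then 39.1, 14.4, 26.1 and 20.5. These genes and *Evx1* had their 4 highest values on the arrays high for Hox groups 2 and 3. For *Evx1* the gap was narrow, 65.9 on Cre+ replicate 2 against 65.1 on control replicate 4. Not all of the list followed. *Ptf1a* and *Atoh1*, which specify neurons of the cerebellum and dorsal hindbrain, were highest on control replicate 2, at 141.8 and 155.8. Hox groups 2 and 3 were low there. Both genes were lowest on Cre+ replicate 1, at 36 and 55.5. *Tlx3* and *Evx2* read higher on Cre+ replicate 1 (68.8 and 30.1) than on Cre+ replicate 2 (67.3 and 22.3). *Mnx1*, a motor neuron gene, stayed between 0.7 and 8. None of the 9 genes was called, and what part the share of hindbrain in each sample has in the Hox levels was not tested.

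The 14 measured forebrain and midbrain genes lay between -0.18 and 0.043 on the mutants and between -0.074 and 0.13 on the controls, with Cre+ replicates 3 and 4 lowest and control replicate 2 highest, and 0 were called. Of the 14, 2 were lower in the mutants without overlap, against 2.15% of all genes. These were *Dlx1* (log2 fold change -0.68, limma adjusted p = 0.166) and *Dlx2* (-0.56, limma adjusted p = 0.094). *Otx2*, expressed ahead of the hindbrain, read 1921 to 2556 on the mutants and 2112 to 2408 on the controls.

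The 14 mesenchyme genes lay at 2.02, 3.08, -0.076 and -0.21 on the mutants and between -0.29 and 0.35 on the controls. Beside Hox groups 2 and 3, Cre+ replicate 1 had high mesenchyme genes and low Hox genes, Cre+ replicates 3 and 4 had low mesenchyme genes and high Hox genes, and the array labelled Cre+ replicate 2 was high in both. *Col3a1*, a collagen, read 4864 and 4571 on Cre+ replicates 1 and 2 and 114.7 to 555 elsewhere. None of the 14 was called, although all 14 had a fold change above 0. With Cre+ replicates 3 and 4 alone against the controls, 0 Hox genes were called, and *Hoxb3* had a log2 fold change of 3.80 (limma adjusted p = 0.521). The limb and muscle list (10 genes) lay between -0.050 and 0.065 apart from 0.40 on the array labelled Cre+ replicate 2. The 5 measured genes of peripheral ganglia and neural crest lay between -0.23 and 0.45, with their highest value on the same array.

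**Figure D5:**
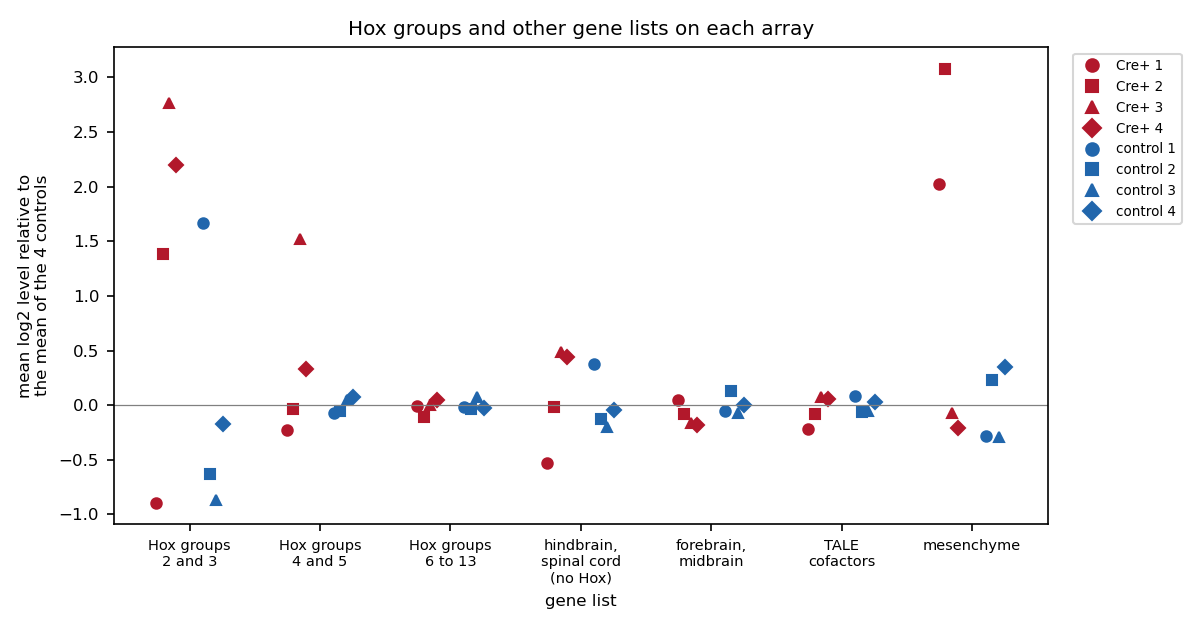
Mean log2 level relative to the mean of the 4 controls (vertical axis) of Hox groups and other gene lists (horizontal axis) on each array; each symbol is an array, red for Cre+ and blue for control. The order of the 8 arrays is the same in Hox groups 2 and 3 and in the hindbrain and spinal cord list. The mesenchyme list sets apart Cre+ replicates 1 and 2 at 2.02 and 3.08.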

How the data were processed

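RNA of E12.5 brain was hybridised to 1-colour Affymetrix mouse arrays of the whole genome. By their methods the authors ran RMA (version not given) through AffyPLM, took log2 values and used GeneSifter for t-tests, adjusted by Benjamini-Hochberg. The deposited values are intensities per probe set on a linear scale from 0, with array medians of 40.9 to 68, which RMA output does not have, and the step that made them is not given in the sources used here. The number of arrays limits the precision.

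The table holds 45101 probe sets, and 64 that serve Affymetrix as controls were dropped. By the platform annotation, 34945 belong to a single gene, 932 to several genes and 9160 to none, and 0 symbols changed on matching to RefSeq. Intensities were quantile normalized, 16 was added and log2 taken. Genotypes were compared with limma 3.58.1 in R 4.3.3 (lmFit and eBayes, two-sided, Benjamini-Hochberg over all probe sets, called at 0.05), checked on simulated data. A gene is represented by its brightest probe set. The mean of 30.6% of probe sets lay below 16, where fold changes on the scale of intensity plus 16 are understated. Some listed genes are not analysed here, and the number measured is given beside each list.

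The members and lists were chosen with earlier results of these data known. Values on every array are given for members with a mean of 16 or more, up to 24, and of each list of cofactors and regulators the 4 genes of smallest p are named, with *Rest*, *Xist*, *Eif2s3y*, *Col3a1* and *Otx2* as checks. Members outside the first rule whose values are printed were picked once their values had been seen. So were *Meis1*, *Meis2*, *Cyp26b1*, *Lbx1*, *Slc6a5*, *Phox2a*, *Evx1*, *Evx2*, *Tlx3*, *Ptf1a*, *Atoh1*, *Mnx1*, *Dlx1*, *Dlx2*, *Sox2* and *Tubb3*. As alternatives, the fits were repeated with other scalings, constants of 1 and 50, the methods' t-test, trend and robust fitting, a filter on dim probe sets, other rules for the probe sets of a gene, a replicate block, array weights, *Eif2s3y* as a covariate, subsets of arrays and leaving out each array.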

Additional observations from a re-analysis of the deposited data

Results flagged for a closer look

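In 10 of the 90 groups of 4 values looked at, 1 array lay far from the other 3. The rule marks about 1 in 20 groups of independent, normally distributed values. Most groups here held intensities not on a log scale, and many shared arrays and genes, so the count measures no excess over chance. Control replicate 1 lay far above the other controls for *Hoxb3* (172.6 against 6.9 to 12.8), *Hoxd3* (72.3 against 0.91 to 7.79) and *Hoxa3* (82.7 against 1.01 to 6.99), and so for the mean log2 level of paralogue group 3 (1.84 against -0.77 to -0.53). *Hoxc4* was far higher on Cre+ replicate 3 (267.9) than on the other mutants (2.52 to 34.2), and on control replicate 3 (2.4) than on the other controls (0.67 to 0.9), the latter within the background range. Paralogue group 12, which is *Hoxd12* alone and at background, stood at 0.14 on Cre+ replicate 4 against -0.41 to -0.33 on the other mutants. Among the regulators, *Gbx2* read 392.3 on control replicate 1 against 322.4 to 333.3, *Dhrs3* 66.6 on the array labelled Cre+ replicate 2 against 28.2 to 32.6, and *Cbx7* 43.2 on that same array against 54.3 to 56.2.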

How the results depend on the processing

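No Hox gene, Hox probe set or gene of the cofactor and regulator lists was called under any alternative run. The smallest adjusted p of a Hox gene ran from 0.115 (averaging the probe sets of a gene) to 0.876 (no scaling), while the genes called overall ran from 0 to 50. The median log2 fold change of the Hox genes was 0.50 over the 11 genes left by the filter on dim probe sets, which drops 22 members, and ran from -0.003 to 0.093 when each array was left out. Of the mean differences by cluster and group, that filter moved Hoxa to 0.44, Hoxc to 0.73 and Hoxd to 1.71. A constant of 1, which stretches low values, moved Hoxd to 0.59 and groups 4, 6, 10, 12 and 13 to 1.32, 0.37, -0.11, -1.18 and -0.28. Group 10 went to -0.098 without less specific probe sets, group 7 to 0.098 with *Eif2s3y* as a covariate and to 0.096 with the 2 male controls alone, and group 4 to 1.33 with Cre+ replicates 3 and 4 alone.

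Some signs turned. No Hox, cofactor or regulator gene was called under any setting, so this could only be so for differences that were not called. With *Eif2s3y* as a covariate *Hoxb2* was -0.084, *Hoxa2* -0.25, *Pknox1* 0.098, *Cdx4* 0.024 and *Cdx2* 0.030, and with the male controls alone they were -0.031, -0.21, 0.088, 0.021 and 0.032. With Cre+ replicates 3 and 4 alone *Hoxa5* was 0.033, *Hoxc6* 0.14, *Meis3* 0.018, *Pbx4* 0.043, *Pknox1* 0.051 and *Gbx2* 0.032. *Hoxa5* was 0.15 by the mean of its probe sets and 0.53 without less specific ones, and *Pknox1* 0.036 without scaling. With each array left out in turn, the range was -0.073 to 0.13 for *Hoxb7*, -0.086 to 0.49 for *Hoxa9*, -0.22 to 0.064 for *Hoxc6*, -0.079 to 0.028 for *Pknox1* and -0.32 to 0.022 for *Cdx2*. The cause was not tested.

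No pairing of the arrays by replicate number was seen, though so few arrays cannot exclude one. Correlations of deviations from the genotype means ran from -0.20 to 0.041 for arrays of the same number and from -0.10 to 0.15 for others. Of the 8 arrays, 0 correlated best with their own number. With the replicate number as a block, 0 Hox genes and 0 genes overall were called, and the smallest Hox adjusted p was 0.602. At a signal threshold of 16 or 64 in place of 32, chosen after seeing the data, Cre+ replicate 3 kept the most Hox probe sets (20 and 11). Changes of levels within the background range, as in most genes of groups 6 to 13, cannot be read.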
